A study of Mus musculus with 4 samples.

Results

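Leptotene and zygotene spermatocytes were studied as the cell barcodes of mouse testis libraries that carried early meiotic transcripts, 1146 of 24851 deposited barcodes. A barcode was taken when it had at least 500 genes, at most 20% mitochondrial counts of unique molecular identifiers (UMIs), at least 2 UMIs of Ddx4 plus Dazl, and at least 3 UMIs of Dmc1, Rad51ap2 and Terb1 together. It could hold at most 4 UMIs of Stra8, at most 2 of 6 genes of undifferentiated spermatogonia (Zbtb16, Nanos3, Egr4, Gfra1, Ret and Upp1), at most 4 of the pachytene genes Ldhc plus Fabp9, and under 0.3% of its UMIs from the Sertoli genes Aard, Cst9 and Cldn11. These barcodes are called members, and the genes named here chose them, so their levels are given only as a description. The 4 groups had 1 library each and shared the Acr-Gfp tg mouse strain on C57BL/6. The 2-day and 7-day cultures came from testes taken at 7 days postpartum (dpp), cut into pieces and kept for 2 or 7 days in α-MEM with AlbuMAX on agarose under a PDMS ceiling. The 9 dpp and 14 dpp libraries came, by their titles, from testes of those ages, although the label text on culture is attached to all 4 libraries. Each culture is set here beside the in vivo library of the same total age. The number of animals behind a library is not stated, and with 1 library per group no difference has a replicate check and no test between groups was possible. Every interval below covers counting error only.

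In leptonema, the first stage of meiotic prophase, the SPO11 enzyme with its partners cuts both DNA strands, at sites that PRDM9 marks in the mouse, and the chromosomes become threads on a cohesin axis. In zygonema the meiotic recombinase DMC1 leads strand exchange between homologous chromosomes, telomeres attach to the nuclear envelope, and the synaptonemal complex begins to join the homologues. Pachynema follows, with full synapsis, silencing of the X and Y chromosomes and a new wave of genes for later sperm formation. In the mouse the first cells reach these stages during the second week after birth.

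Members numbered 181 after 2 days and 437 after 7 days of culture, 76 at 9 dpp and 452 at 14 dpp. They held 570004 UMIs after 2 days and 2825446 UMIs after 7 days of culture, 722376 UMIs at 9 dpp and 2443730 UMIs at 14 dpp. The median member had 2676 UMIs after 2 days and 5860 UMIs after 7 days of culture, 7475.5 UMIs at 9 dpp and 4436 UMIs at 14 dpp, and 1426 genes after 2 days and 2498 genes after 7 days of culture, 2778.5 genes at 9 dpp and 2108 genes at 14 dpp. Mitochondrial UMIs were highest in the 2-day culture, with a median of 8.76%, against 5.91% to 6.48% in the others. Germ barcodes as a whole, with at least 2 UMIs of Ddx4 plus Dazl and without the Sertoli genes, numbered 2893 after 2 days and 2558 after 7 days of culture, 2635 at 9 dpp and 3811 at 14 dpp. Between 35 and 86 barcode sequences recurred in any pair of libraries, and 1 of them was a member in both cultures. Female gonads are named as the source in the labels' library protocol, whereas the members held 394, 2970, 434 and 2140 UMIs of Y-linked genes, in the order 2-day culture, 7-day culture, 9 dpp and 14 dpp. This order is kept wherever 4 values are given without names.

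Barcodes were found on both sides of each limit of the rule. Members with a sum of exactly 3 UMIs of Dmc1, Rad51ap2 and Terb1 numbered 75, 111, 36 and 116, and 127, 141, 98 and 190 barcodes stood just outside with a sum of 2. Stra8, which drives entry into meiosis, removed more. Of the germ barcodes with at least 3 UMIs of those genes, 49.7%, 28.0%, 71.9% and 38% had 5 or more Stra8 UMIs and were left out. A fixed count of UMIs is reached more easily by a deep barcode, so both limits act differently at different depths. The Sertoli limit left out 7, 8, 11 and 139 barcodes and the pachytene limit 0, 159, 0 and 114, both uneven between libraries, and that on spermatogonial genes 6, 14, 23 and 18. Among 2903 Sertoli barcodes, those with at least 0.3% of UMIs from the 3 Sertoli genes and at most 1 UMI of Ddx4 plus Dazl, 1 reached the marker sum of 3. That gate leaves out barcodes with more germ UMIs, so the number is no measure of free germ cell RNA.

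The label was checked on genes that the rule did not use. Summed over 11 genes of the synaptonemal complex and its regulators (Sycp1, Sycp2, Sycp3, Syce1, Syce2, Syce3, Tex12, 4930447C04Rik, Hormad1, Hormad2 and Trip13) and with each member thinned to 2000 UMIs, members had a median of 36 (quartiles 24 and 45) in the 2-day culture, 33 (quartiles 27 and 38) in the 7-day culture and 31 (quartiles 25 and 36.25) at 14 dpp. Germ barcodes with at least 5 Stra8 UMIs had medians of 6, 6, 6 and 9, and those with at least 3 UMIs of the spermatogonial genes 4, 3, 3 and 3. Those with at least 5 UMIs of Ldhc plus Fabp9, the pachytene gate, had 24 in the 7-day culture and 22 at 14 dpp. The sum thus set members apart from earlier germ barcodes more than from pachytene ones. Members at 9 dpp had a median of 17 (quartiles 4 and 38) and formed a low and a high set. There 36 of 75 members had under 10 of these UMIs, against 14 of 150 after 2 days of culture, 12 of 433 after 7 days and 29 of 448 at 14 dpp. The low set was deep, with a median of 13934 UMIs against 5450 in the high set. Its synaptonemal genes summed to 1964 CPM (1843 to 2091), where CPM is the usual scaled share of all UMIs of the summed members and the range is a 95% Poisson interval. The high set reached 18999.8 CPM (18434 to 19578), near the 18088 CPM of the same set in the 2-day culture. The sets were cut on these same genes, so their sums are only a description. That 36 of 75 members fell under the cut goes against the label for the low set. The main counts, list medians and several genes of the comparisons with 9 dpp are therefore given also for the 136, 421, 39 and 419 members with at least 10 synaptonemal UMIs of 2000, called synapsis-high members, a division made after the data were seen. The name stands for this count of transcripts alone, and synapsis itself was not measured.

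**Figure D1:**
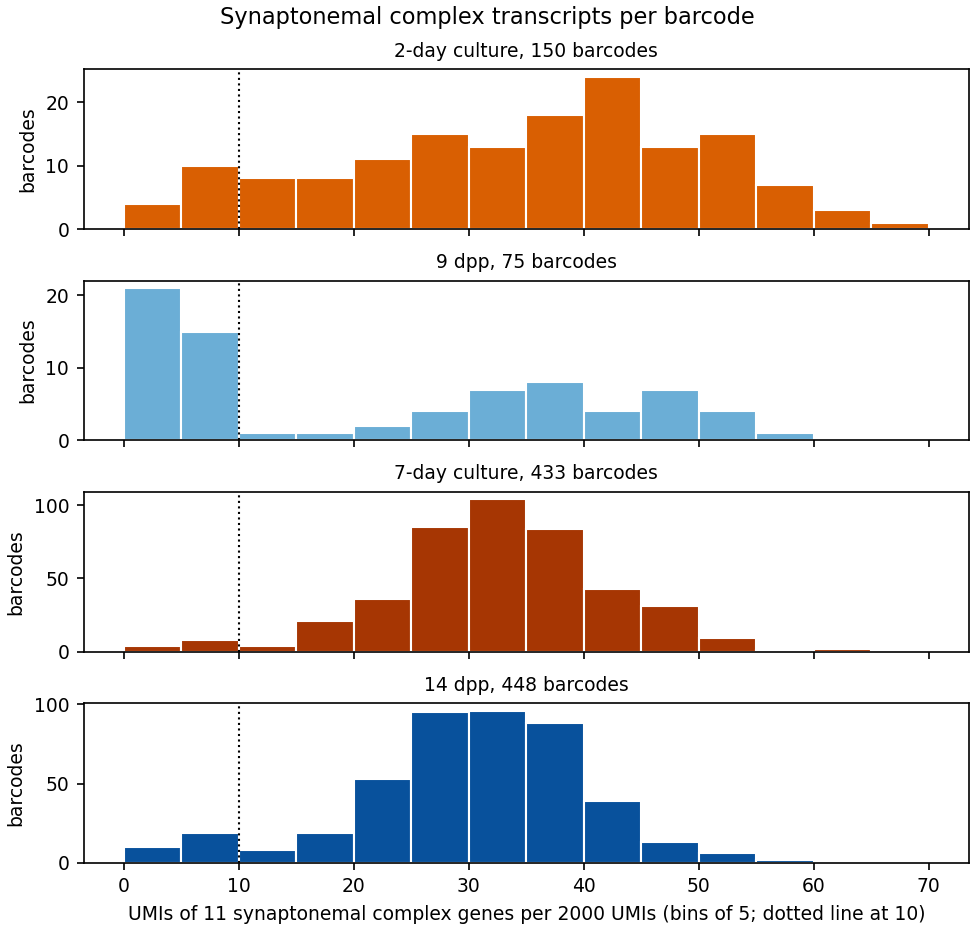
Members by their UMIs of 11 synaptonemal complex genes after thinning to 2000 UMIs (x axis) in each library, with the number of barcodes on the y axis. The 9 dpp panel splits, with 36 of 75 members left of the dotted line at 10, while 12 of 433 lie left of it in the 7-day culture.

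Spo11, the break-forming enzyme, and Meiob, a single-strand DNA binding partner of the recombinases, were the markers of these stages outside the rule. Spo11 stood at 111 CPM after 2 days and 89.2 after 7 days of culture, 44.3 at 9 dpp and 108 at 14 dpp. In all other germ barcodes it was at 8.07, 18.9, 4.30 and 15.7 CPM. Meiob stood at 254 CPM after 2 days and 381 after 7 days of culture, 116 at 9 dpp and 384 at 14 dpp, against 27.8, 106, 6.70 and 51.9 CPM in the other germ barcodes. Both were higher in members in every library and lowest at 9 dpp, where the synapsis-high members had 133 and 374 CPM.

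Members made up 2.54% (95% Clopper-Pearson interval 2.19% to 2.93%) of the kept barcodes in the 2-day culture and 1.44% (1.13% to 1.79%) at 9 dpp. They made up 8.90% (8.12% to 9.73%) in the 7-day culture and 7.13% (6.51% to 7.79%) at 14 dpp. Both older libraries thus held several times the share of the younger ones, with log2 ratios of 2.31 (95% interval 1.97 to 2.66) in vivo and 1.81 (95% interval 1.57 to 2.05) in culture. With synapsis-high members alone, over barcodes of at least 2000 UMIs, the share at 9 dpp was 0.750% and these ratios were 3.20 (95% interval 2.73 to 3.67) and 1.95 (95% interval 1.68 to 2.22). When every barcode was thinned to 2000 UMIs before the thresholds, 109, 174, 37 and 228 barcodes met the rule, shares of 1.88%, 3.74%, 0.712% and 3.76%. Thinning lowers Stra8 too. Before it, 22, 36, 15 and 42 of these had at least 5 Stra8 UMIs and at most 4 of Ldhc plus Fabp9, so the sets are not the same cells. The ratios with time after thinning were 2.40 in vivo and 0.99 in culture.

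Between culture and testis of the same total age the order was less stable. In the 2-day pair the log2 ratio of the shares was 0.82 (95% interval 0.44 to 1.21), and 1.40 (95% interval 0.86 to 1.93) after thinning, and 1.64 (95% interval 1.13 to 2.15) for the synapsis-high members. Without the limit on Stra8, an alternative chosen after seeing the data, it was −0.05 (95% interval −0.27 to 0.17) on raw UMIs and 1.19 (95% interval 0.75 to 1.64) after thinning. In the 7-day pair it was 0.32 (95% interval 0.14 to 0.50) on raw UMIs and −0.01 (95% interval −0.29 to 0.27) after thinning, so no difference between these shares was detectable with the rule applied at equal depth. For the synapsis-high members it was 0.39 (95% interval 0.20 to 0.58). As a share of germ barcodes, members made up 17.1% of the 7-day culture and 11.9% of 14 dpp. A gain of members and a loss of other cells cannot be told apart in such shares, nor can the release of cells during dissociation.

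**Figure D2:**
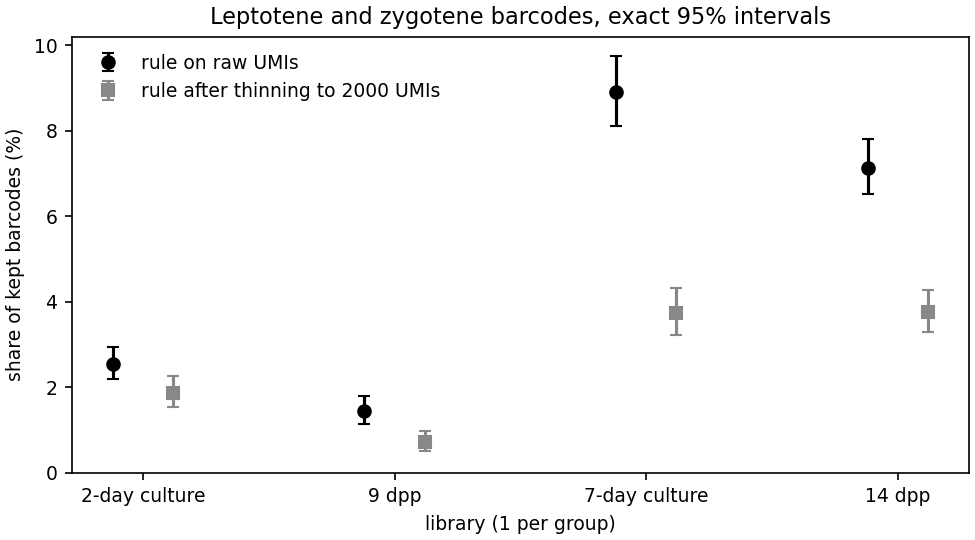
Share of kept barcodes that met the rule (y axis, %, with 95% exact intervals) in the 4 libraries (x axis), on raw UMIs (black circles) and after thinning to 2000 UMIs (grey squares). The 7-day culture stands above 14 dpp on raw UMIs (8.90% and 7.13%) and beside it after thinning (3.74% and 3.76%).

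The genes that led the members over all other germ barcodes in every library, beyond the genes of the rule, describe the gate. They were ranked by their smallest log2 ratio over the 4 libraries. Ccnb3, a cyclin of early prophase, led with 105 CPM after 2 days and 178 after 7 days of culture, 47.1 at 9 dpp and 149 at 14 dpp, against 10.4, 20.3, 6.29 and 11.9 CPM in the other germ barcodes. Next were Ap1s2, a subunit of a vesicle coat adaptor, Spo11, and Maoa, the monoamine oxidase A, which stood at 119, 139, 42.9 and 109.7 CPM against 19.0, 16.1, 9.23 and 11.4 CPM. Hfm1, a helicase of crossover formation, had 114, 112, 58.1 and 155 CPM against 15.4, 26.9, 5.81 and 22.4 CPM. Fbxo47, an F-box protein of meiotic prophase, had 156, 69.7, 111 and 119 CPM against 17.0, 17.0, 9.80 and 16.8 CPM. The others among the first 15 were Trim52, St7, Erlec1, Sycp3, Pet2, H2-Ab1, Meiob, Rexo5 and Pbx3. Ccnb3, Ap1s2, Maoa and Pet2 lie on the X chromosome. Erlec1, a lectin of the endoplasmic reticulum, stood at 261, 765, 111 and 356 CPM against 58.3, 197, 28.7 and 82.0 CPM.

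The synaptonemal complex is built from the lateral element proteins SYCP2 and SYCP3, the transverse filament SYCP1 and central element proteins such as SYCE2 and TEX12, and HORMAD1 marks axes that have not yet synapsed. Sycp3, at chr10:88459569-88473236 in GRCm38, stood at 6433 CPM after 2 days and 6257 after 7 days of culture, 2306 at 9 dpp and 4360.1 at 14 dpp. Sycp1 stood at 2503, 3964, 1267 and 3501 CPM, Sycp2 at 654, 994, 331 and 1106 CPM, Hormad1 at 686, 1127, 439 and 761 CPM and Syce2 at 2195, 933, 1039.6 and 1265 CPM. All 5 were lowest at 9 dpp or, for Syce2, in the 7-day culture. In the synapsis-high members the 9 dpp values were 6707 for Sycp3, 3367 for Sycp1, 1001 for Sycp2, 1285 for Hormad1 and 2144 CPM for Syce2. That set was chosen on these genes, so its levels of them are a description.

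Since these genes share a high level in the members, their promoters were searched for 3 short motifs in RefSeq windows on GRCm38.p6, from 250 bases before to 50 after each start site. The E-box CACGTG, which MAX dimers are known to bind, was present on either strand in 7 of the 14 promoters of the 11 synaptonemal genes (6 of 11 genes), against 7.15% of all 32851 promoters. CNCCTCAG, known as a motif of the STRA8 and MEIOSIN pair, was present in 5 of 14 against 7.94%, and in 7 of 17 promoters of the heat shock list. TAACNG, a core of MYB family sites, was present in 9 of 14 against 23.3%. In other lists the E-box was found in 0 of 5 promoters of telomere attachment genes and in 10 of 27 of germ granule genes. A match is only a match of letters. The windows below, 60 bases each from before the start site and written 5′ to 3′ on the gene's strand, show the E-box in capitals in 5 synaptonemal genes and in the cohesin gene Stag3. They lie at chr3:102936162-102936221 (− strand) for Sycp1, chr10:88459517-88459576 (+ strand) for Sycp3, chr8:84872143-84872202 (+ strand) for Syce2, chr9:50561329-50561388 (− strand) for Tex12, chr3:95559617-95559676 (+ strand) for Hormad1 and chr5:138280312-138280371 (+ strand) for Stag3.
Sycp1: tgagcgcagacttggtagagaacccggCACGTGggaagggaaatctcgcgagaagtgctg
Sycp3: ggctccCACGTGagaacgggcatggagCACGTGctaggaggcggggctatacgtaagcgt
Syce2: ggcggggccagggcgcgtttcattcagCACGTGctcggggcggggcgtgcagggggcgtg
Tex12: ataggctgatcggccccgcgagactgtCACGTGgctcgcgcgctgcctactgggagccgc
Hormad1: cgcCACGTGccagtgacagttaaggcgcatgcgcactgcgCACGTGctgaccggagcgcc
Stag3: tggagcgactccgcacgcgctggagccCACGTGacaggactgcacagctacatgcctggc

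Sycp3 and Hormad1 each carry 2 E-boxes within the printed window, and the nearer one of Hormad1 ends 14 bases before the start site. No E-box was found before the start sites of Sycp2, Syce1, Syce3, Hormad2 or Trip13, nor of the 3 genes that chose the members.

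Stra8 was used by the rule, so a division of the members by it is only a description. Its sets had similar depth at 14 dpp (median 4446 UMIs without and 4389 with Stra8), and after 7 days of culture 6509.5 and 5503. In the 7-day culture 226 of 437 members had no Stra8 UMI, and in them the genes of break formation summed to 673 CPM (632 to 715), against 1349 CPM (1286 to 1414) in members with 1 to 4. Replication genes summed to 1756 against 2749 CPM. Genes of pachytene onset went the other way, with 1583 against 868 CPM. At 14 dpp, where 243 of 452 members had no Stra8 UMI, the sums were 1402 against 2058 CPM for break formation, 2819 against 3951 for replication and 985 against 525 for pachytene onset. The synaptonemal sum differed little in either library, from 13628 to 16159 CPM over these 4 sets. At equal depth the replication list gave, in UMIs of 2000 per member, a median of 4 (quartiles 2 and 6) in the 7-day culture and 7 (quartiles 4 and 10) at 14 dpp. It gave a median of 8 (quartiles 6 and 11) in the 2-day culture and 9 (quartiles 6 and 10) at 9 dpp.

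The 7-day culture against 14 dpp had the most members on both sides, 437 and 452. Members were compared on summed UMIs by the log2 ratio of CPM plus 1, and a gene was counted when the ratio was at least 1 or at most −1, which is 2-fold. Of 6605 genes with at least 100 UMIs over all members, 124 were at least 2-fold higher in the culture (1.88%) and 255 at least 2-fold lower (3.86%), together 5.74%, with a median of −0.05 over all genes. All measured genes of break formation and telomere attachment and nearly all of DNA replication had log2 ratios below 0. Nearly all measured genes of the germ granule and all measured ones of pachytene onset had ratios above 0.

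In the list of break formation and hotspot choice 0 of 8 measured genes were above 0 and 3 were at least 2-fold lower, against 3.86% of all genes. The median was −0.74 and ranged from −0.94 to −0.63 over 11 alternatives. Prdm9, the histone methyltransferase that marks hotspots (at chr17:15543079-15564354), stood at 128 CPM after 2 days and 39.3 after 7 days of culture, 58.1 at 9 dpp and 94.9 at 14 dpp. Among synapsis-high members it was at 145, 38.7, 165 and 104 CPM, so it was lowest in the 7-day culture in both sets. The counting intervals of the 7-day pair, 32.3 to 47.3 and 83.1 to 108 CPM, did not overlap (log2 ratio −1.25), as was so for 2166 of all 6605 genes. Ccdc36, the axis-bound break factor IHO1 (at chr9:108403611-108428484), stood at 71.9 CPM after 2 days and 19.1 after 7 days of culture, 47.1 at 9 dpp and 52.0 at 14 dpp, a log2 ratio of −1.40. Mei1, a further break factor (at chr15:82069996-82126814), stood at 71.9 CPM after 2 days and 12.4 after 7 days of culture, 22.1 at 9 dpp and 27.0 at 14 dpp, a log2 ratio of −1.06. Hells, which works with PRDM9 to open hotspots, had 536 against 1012 CPM in the pair, a log2 ratio of −0.92. Ankrd31 had a ratio of −0.56, Rec114 of −0.45 and Gm960, the partner subunit of SPO11, of −0.39. Spo11 itself had −0.28. Zcwpw1, the reader of the marks that PRDM9 sets, belonged to the list of strand exchange and stood at 619 CPM after 2 days and 281 after 7 days of culture, 359.9 at 9 dpp and 622 at 14 dpp, a log2 ratio of −1.14.

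The members of the culture were deeper (median 5860 against 4436 UMIs). With members thinned to 2000 UMIs each, 35.3% of those in the culture and 60.5% of those at 14 dpp reached 3 UMIs of the list.

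Genes of strand exchange differed in both directions. Of 23 measured outside the rule, 4 were above 0, and the median was −0.39. Mnd1, which with Psmc3ip helps the recombinases capture the homologous duplex, was higher in the culture, with 212 CPM (95% interval 195 to 229) after 7 days of culture and 94.5 CPM (95% interval 82.7 to 108) at 14 dpp, a log2 ratio of 1.15. Over all libraries Mnd1 stood at 22.8, 212, 19.4 and 94.5 CPM, so that both older libraries lay above both younger ones. Psmc3ip, its partner, had 179, 189, 73.4 and 174 CPM and a ratio of 0.11 in the 7-day pair. Swi5, of the SWI5-SFR1 complex that stabilizes recombinase filaments, stood at 846, 1912, 729.5 and 1131 CPM, a ratio of 0.76. Brca2, a recombinase loader, had 206 against 309 CPM in the pair (−0.58), Hsf2bp, a BRCA2 partner, 153 against 229 CPM (−0.58) and Meiob 381 against 384 CPM (−0.01). Of the genes of the rule, Dmc1 had 345 against 414 CPM, Rad51ap2 372 against 343 CPM and Terb1 150.1 against 281 CPM, as a description.

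Of 10 crossover genes 2 were above 0 and 2 at least 2-fold lower against 3.86% of all genes, with a median of −0.48. The lower ones were Msh5, which with Msh4 forms the MutSγ clamp (57.0 against 116 CPM, −1.02), and AI481877, also known as Shoc1, a crossover factor (9.20 against 20.9 CPM, −1.10). Msh4 had 36.8 against 32.3 CPM (0.18) and Hfm1 112 against 155 CPM (−0.46). Cntd1, a cyclin-like protein of late crossover maturation, was higher in the culture at 160.3 against 91.7 CPM (0.80), and stood at 38.6 and 15.2 CPM in the younger libraries. None of 6 genes of telomere attachment was above 0 (median −0.51, −0.66 to −0.39 over the alternatives). Terb2 and Majin, which tie telomeres to the envelope, had 72.2 against 126 CPM (−0.80) and 26.9 against 40.9 CPM (−0.59), and Spdya, the CDK2 activator at telomeres, 150.1 against 255 CPM (−0.76). The 3 measured meiotic cohesins were lower as well: Smc1b with 1358 against 1792 CPM (−0.40), Stag3 with 129 against 181 CPM (−0.49) and Rad21l with 13.8 against 27.0 CPM (−0.92). Each of the telomere and cohesin ratios was under 2-fold.

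The 11 synaptonemal genes split, with 5 above 0, none past 2-fold and a median of −0.15. Sycp3 was 6257 CPM (95% interval 6165 to 6349.6) after 7 days of culture and 4360.1 CPM (95% interval 4278 to 4444) at 14 dpp, a log2 ratio of 0.52, and Hormad1 had 1127 against 761 CPM (0.57). The central element genes Syce2 (933 against 1265 CPM, −0.44) and Tex12 (552 against 764 CPM, −0.47) were lower in the culture, and Sycp1 (0.18) and Sycp2 (−0.15) stood between. Summed over the list the levels were 15976 and 13984 CPM, so the sum was higher in the culture while the median gene was lower. Of the genes of meiotic entry, Meioc and Ythdc2, which end the mitotic program together, had ratios of −0.08 and −0.15, and Rbm46, an RNA-binding partner, 298 against 194 CPM (0.62).

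Replication genes are used in the S phase before leptonema. In the 7-day pair 1 of 23 was above 0 and 6 were at least 2-fold lower against 3.86% of all genes, with a median of −0.76 (−0.92 to −0.66 over the alternatives). Lig1, the replicative DNA ligase, stood at 305 CPM after 2 days and 74.7 after 7 days of culture, 285 at 9 dpp and 214 at 14 dpp, a log2 ratio of −1.51 in the pair. Rrm2, a subunit of ribonucleotide reductase, stood at 242, 50.6, 202 and 148 CPM (−1.53), Prim1, the primase, at 151, 49.5, 118 and 136 CPM (−1.44), and Mcm6, a helicase subunit, at 209, 78.9, 208 and 165 CPM (−1.05). All 4 were lowest in the 7-day culture. Mcm2 (12.7 against 40.5 CPM) and Tyms (7.79 against 22.9 CPM) were the others past 2-fold. Slbp, which binds histone mRNA, had a ratio of −0.09. In the other germ barcodes Lig1 stood at 175 CPM after 7 days of culture and 216 CPM at 14 dpp. Of 15 cell cycle genes 2 were at least 2-fold lower against 3.86% of all genes, Ccna2 (33.6 against 71.2 CPM) and Ccnd1 (8.49 against 32.7 CPM), the S phase and G1 cyclins, and the median was −0.34. Top2a, the topoisomerase with the most UMIs of this list, had 482 against 655 CPM (−0.44), and Ccnb3 178 against 149 CPM (0.26).

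**Figure D3:**
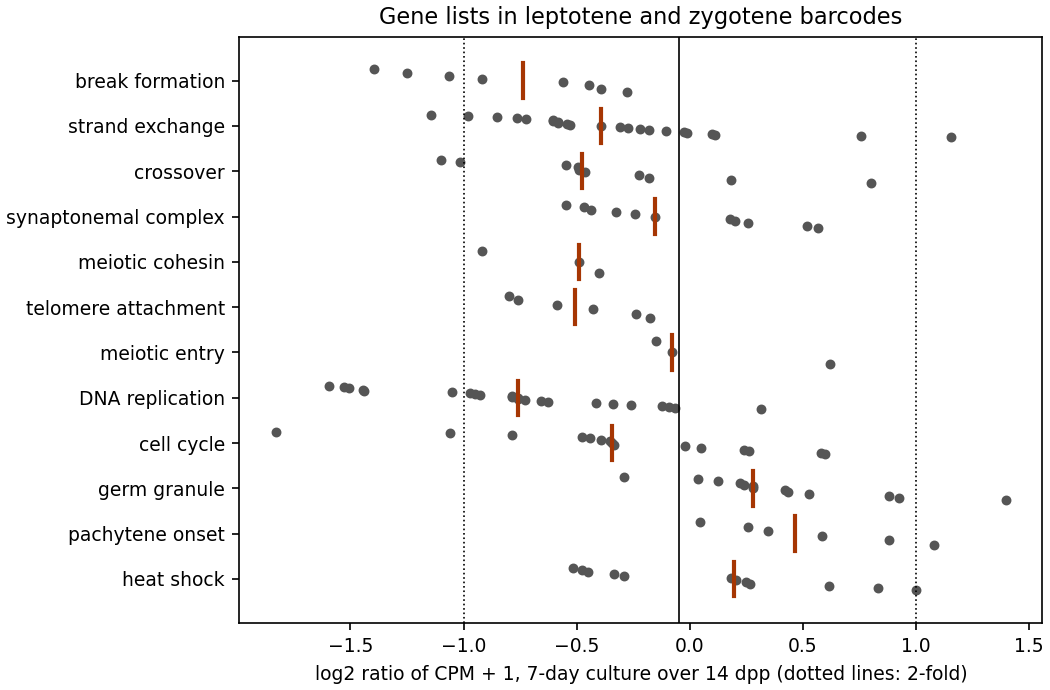
Each point is 1 gene of a list, placed by its log2 ratio of CPM plus 1 in members of the 7-day culture over 14 dpp (x axis), the lists are on the y axis, brown bars are list medians, the solid line is the median of all 6605 genes and dotted lines mark 2-fold. All 8 genes of break formation and 22 of 23 replication genes lie below 0, and all 6 genes of pachytene onset lie above it.

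Germ granule genes serve the piRNA pathway, which silences transposons. 12 of 13 were above 0 in the 7-day pair and 1 was at least 2-fold higher against 1.88% of all genes, with a median of 0.28. Tdrd9, a helicase of that pathway, was the one past 2-fold, with 7.02 CPM after 2 days and 32.9 after 7 days of culture, 26.3 at 9 dpp and 11.9 at 14 dpp. Mov10l1, the RNA helicase that feeds piRNA precursors, stood at 121, 364, 90.0 and 197 CPM (0.88), and Mael at 600.0, 899, 577 and 761 CPM (0.24). Of the genes of pachytene onset outside the rule all 6 measured were above 0, with a median of 0.47 (0.36 to 0.68). Hspa2, the testis chaperone that later takes apart the synaptonemal complex, stood at 119 CPM after 2 days and 607 after 7 days of culture, 90.0 at 9 dpp and 329 at 14 dpp (0.88). Its intervals in the pair did not overlap, as was so for 2166 of all 6605 genes. Meig1, needed later for the sperm manchette, stood at 7.02 CPM after 2 days and 206 after 7 days of culture, 23.5 at 9 dpp and 97.0 at 14 dpp (1.08). Ybx2 had 59.5 against 39.3 CPM (0.59), Tbpl1, a germ cell TBP relative, 264 against 207 CPM (0.35), and Clgn 56.3 against 54.4 CPM (0.05). These transcripts were also abundant in the other germ barcodes of the older libraries, with Meig1 at 503 and 468 CPM and Hspa2 at 423 and 352 CPM. The part of free RNA in their level in members was not tested.

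Spermatogonia have an active X chromosome, and pachytene spermatocytes silence it in the sex body. X-linked UMIs made up 3.31% (3.26% to 3.36%) of nuclear UMIs in members after 2 days of culture and 3.00% (2.98% to 3.02%) after 7 days, 2.75% (2.71% to 2.78%) at 9 dpp and 2.88% (2.86% to 2.90%) at 14 dpp. In the synapsis-high members of 9 dpp the share was 3.46% (3.38% to 3.54%). Stra8-high germ barcodes (at least 5 Stra8 UMIs) had 2.64%, 2.64%, 2.56% and 2.56%, and germ barcodes of spermatogonia, with at least 3 UMIs of the 6 spermatogonial genes, had 2.37%, 2.30%, 2.29% and 2.20%. Members thus had the highest X-linked share among these germ gates in each library. Barcodes with at least 5 UMIs of Ldhc plus Fabp9, the pachytene gate, had 0.584% (0.576% to 0.592%) in the 7-day culture and 0.359% (0.353% to 0.365%) at 14 dpp.

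Over 242 X-linked genes the median log2 ratio of members over the pachytene gate was 2.61 in the 7-day culture and 3.22 at 14 dpp, against 0.25 and 0.38 over 6352 autosomal genes. At least 2-fold higher in members were 233 of the 242 in the culture and 239 at 14 dpp, against 17.1% and 27.8% of the autosomal genes. Against spermatogonia the X-linked median was 0.46, 0.66, 0.40 and 0.62, and the autosomal one 0.09, 0.21, 0.17 and 0.27. Taf7l, a germ cell TFIID subunit and the X-linked gene with the most UMIs over all members, stood at 1475, 1151, 947 and 1014 CPM in members and at 95.4 and 35.9 CPM in the pachytene gate after 7 days of culture and at 14 dpp. All these genes had reached 100 UMIs over the members, so X-linked genes low in members were not compared, and the counts support nothing about the X chromosome as a whole. The gates were drawn on other genes, but they compare parts of the same libraries, so these values are a description.

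**Figure D4:**
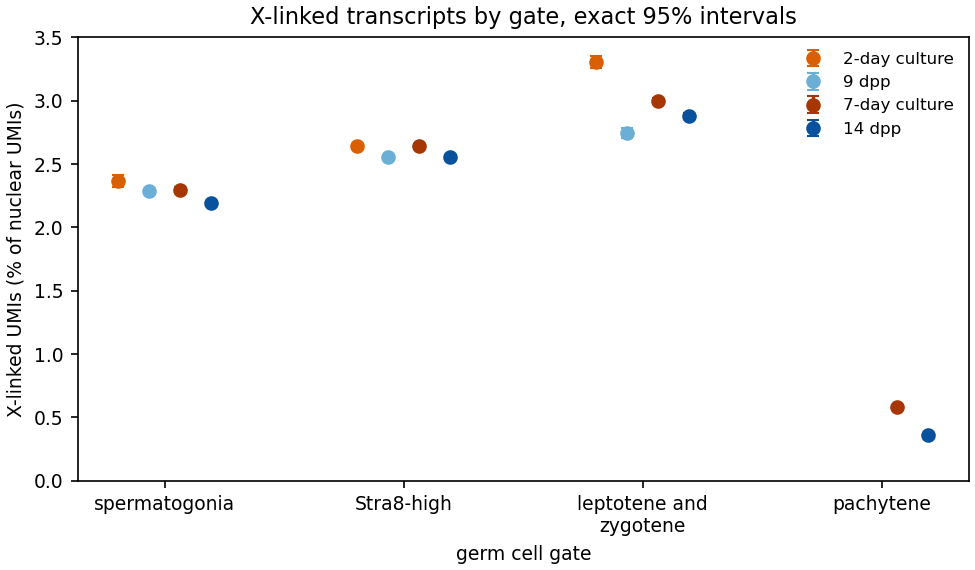
X-linked UMIs as a percentage of nuclear UMIs (y axis, with 95% exact intervals, mostly smaller than the points) in 4 germ cell gates (x axis) of each library. Members lie between 2.75% and 3.31%, and the pachytene gate at 0.584% in the 7-day culture and 0.359% at 14 dpp. The 2-day culture and 9 dpp had 0 barcodes in that gate.

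In the 2-day pair 640 of 6605 genes were at least 2-fold higher in members of the culture (9.69%) and 839 at least 2-fold lower (12.7%). These counts were 362 and 809 with each member weighted equally, and 509 and 492 in synapsis-high members. The lists of early meiosis had medians above 0 there, with 0.98 for synaptonemal genes (4 of 11 at least 2-fold higher, against 9.69% of all genes), 0.68 for break formation and 0.79 for telomere attachment. In the synapsis-high members the same medians were −0.25, −0.16 and −0.40. Genes of differentiating spermatogonia had a median of −1.75, with 5 of 8 at least 2-fold lower against 12.7% of all genes, and 0.07 in the synapsis-high members. Uchl1, a deubiquitinase of spermatogonia, stood at 128 CPM after 2 days and 52.4 after 7 days of culture, 626 at 9 dpp and 126 at 14 dpp, and at 62.3 CPM at 9 dpp among the synapsis-high. Dmrt1, a factor that holds germ cells out of meiosis, had 42.1, 17.7, 329 and 54.0 CPM, and 44.5 CPM. Both were highest at 9 dpp among all members, and near the level of the 2-day culture or below it once the low set was left out. Prss50, a testis protease, had 1374, 861, 516 and 1071 CPM, and 1409.9 CPM. Prdm9 had a ratio of 1.13 over all members and −0.18 among the synapsis-high.

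With time, 793 genes were at least 2-fold higher (12%) and 561 lower (8.49%) at 14 dpp than at 9 dpp, and 832 higher (12.6%) and 620 lower (9.39%) in the 7-day than in the 2-day culture. In synapsis-high members the counts from 9 to 14 dpp were 723 and 184. Of the higher genes 258 were shared, 32.5% of the first list and 31.0% of the second, 2 comparisons that have no library in common, and 3.91% of all genes. Shared lower genes numbered 152 (27.1% and 24.5%, and 2.30% of all genes). Higher with time in vivo but lower in culture were 39, and 18 the other way. Rsph1, a radial spoke protein of cilia and sperm tails, stood at 8.77 CPM after 2 days and 368 after 7 days of culture, 1.38 at 9 dpp and 147 at 14 dpp. Gml stood at 21.1, 311, 13.8 and 192 CPM. Pdcl2 and Spata4, both testis genes, had 0 UMIs in members of both younger libraries. With a count of 0 set to 3 UMIs, Pdcl2 was 5.03-fold higher at 14 dpp and 5.38-fold in the 7-day culture, and Spata4 4.04-fold and 5.65-fold. Tktl2 and Fsip2, a sperm tail sheath protein, were at 0 in the 2-day culture and at 53.8 and 47.1 CPM in the 7-day culture, 10.2-fold and 8.94-fold over that level. These folds leave out the counting error of the higher value, so they are no lower limits.

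From 2 to 7 days of culture break formation genes had a median of −1.20 with 5 of 8 at least 2-fold lower against 9.39% of all genes, and replication genes −1.08 with 13 of 23. Germ granule genes had 1.23 with 7 of 13 at least 2-fold higher against 12.6% of all genes. Of the 14 genes of pachytene onset outside the rule 6 were measured, and all 6 were at least 2-fold higher, with a median of 1.28. In synapsis-high members 4 of the 6 were, with a median of 1.34. Genes were measured by their UMIs over all members, of which the 7-day culture held the most and the 2-day culture the fewest. Genes low in the 7-day culture were thus more easily left out, and the unmeasured genes of the list were not compared. Tk1, thymidine kinase, went from 57.9 to 4.95 CPM and Lig1 from 305 to 74.7 CPM. In vivo from 9 to 14 dpp the medians were 0.49, −0.66, 0.63 and 1.43, and −0.59, −0.23, 0.42 and 1.09 among the synapsis-high, which at 9 dpp were 39 members. The 7-day culture enters both the comparison within culture and that with 14 dpp, so their values are not independent. In vivo 4 of 6 genes of pachytene onset were at least 2-fold higher against 12% of all genes, and 6 of 23 replication genes at least 2-fold lower against 8.49%. In synapsis-high members these counts were 3 and 0, beside 723 higher and 184 lower of all 6605 genes.

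Saa3 and the inflammation list summed were highest in the 2-day culture, in members and in the other barcodes. Saa3, an acute phase protein, stood at 409 CPM after 2 days and 57.0 after 7 days of culture, 1.38 at 9 dpp and 0 at 14 dpp in members and at 10468, 646, 1.12 and 0.827 CPM in the other kept barcodes. At 14 dpp members held 0 Saa3 UMIs, which allows up to 1.23 CPM, so the 7-day culture was at least 46.4-fold higher, with all of its Saa3 UMIs in 4.35% of its members. The inflammation list as a whole summed to 684 CPM in members and 13640.5 CPM in the other kept barcodes in the 2-day culture, 5.02% of their level, and to 119 against 1473 CPM in the 7-day culture. Stroma and myoid markers, which germ cells should lack, in the 2-day culture summed to 640.3 CPM in members and 6196 CPM in the other kept barcodes, 10.3%. At least 1 Saa3 UMI was found in 49.7% of members of the 2-day culture, at a median depth of 2676 UMIs, while Acta2, a muscle actin of myoid cells, had 229.8 CPM from 7.73% of them. Nfkbia, the NF-κB inhibitor, had 43.9, 19.1, 8.31 and 13.5 CPM in members and 435, 191, 99.5 and 105 CPM outside. Only Saa3 and Nfkbia of the 17 listed genes reached 100 UMIs over all members. The macrophage list was near 0, at 1.75 to 6.92 CPM, with Cd74 at 0 UMIs in all 4 sets of members. The part of free RNA in the Saa3 level of members was not tested.

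**Figure D5:**
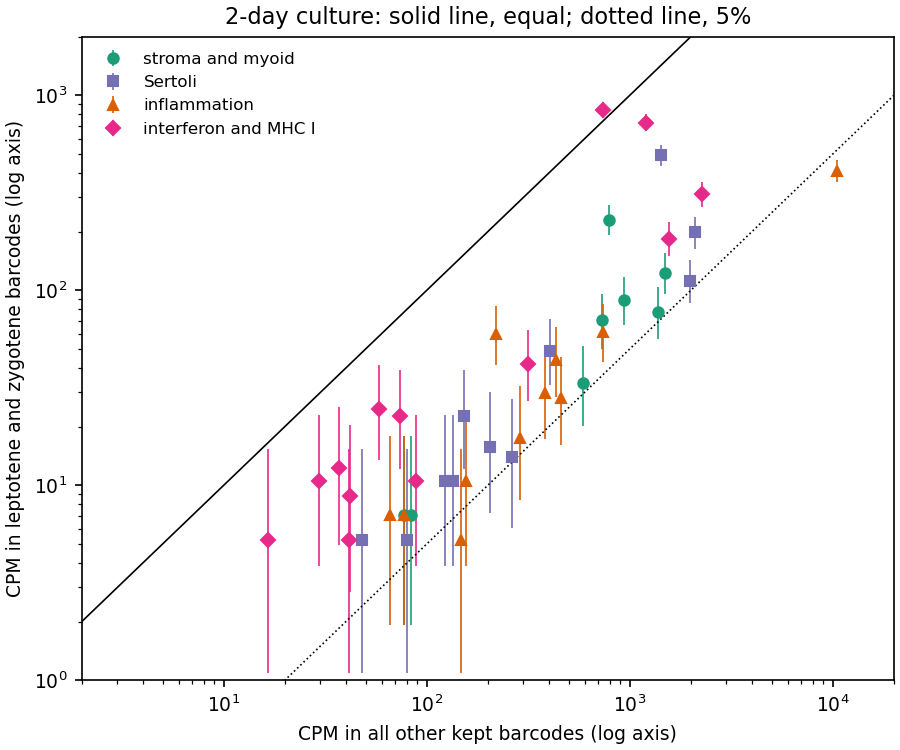
Genes of somatic and inflammatory lists in the 2-day culture by CPM in all other kept barcodes (x axis, log) and in members (y axis, log), with 95% Poisson intervals for genes with at least 3 UMIs in members. Most points lie between the dotted line, 5% of the level in other barcodes, and the solid line of equal levels, Saa3 is at the far right near the dotted line (3.91%), and H2-K1 lies on the side of the solid line where members are higher.

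Genes that differed the same way in both culture pairs were few. At least 2-fold higher in both were 37 genes (5.78% of those higher after 2 days and 29.8% of those higher after 7 days), and lower in both 81 (9.65% and 31.8%), which is 0.560% and 1.23% of all genes. As many as 37 were at least 2-fold higher after 2 days and lower after 7 days, and 27 the other way. Among the 10 leading higher genes, Saa3, Ifitm3, Mgp, Col1a1 and Bgn were also far higher outside the members, for example Mgp, a matrix protein, at 77.2, 121, 4.15 and 36.8 CPM in members and 1385, 1100.0, 131 and 185 CPM outside. Serinc3, a membrane lipid protein, differed from these. It stood at 482 CPM after 2 days and 299.8 after 7 days of culture, 174 at 9 dpp and 94.5 at 14 dpp in members, and at 199, 187, 121 and 49.9 CPM in the other germ barcodes and 579, 431, 298 and 122 CPM in all other kept barcodes. Its ratio was 1.46 in the 2-day pair (0.63 among the synapsis-high) and 1.65 in the 7-day pair.

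Leading genes that were lower in both cultures included several that were lower in the other germ barcodes too. Il11, a cytokine, stood at 7.02 CPM after 2 days and 8.85 after 7 days of culture, 208 at 9 dpp and 45.0 at 14 dpp in members and at 18.2, 18.2, 285 and 132 CPM in the other germ barcodes. Olfr655, an olfactory receptor gene, had 26.3, 17.0, 143 and 92.1 CPM and 44.6, 20.9, 239.5 and 168 CPM. Loxl2, a lysyl oxidase, had 104, 40.3, 505 and 178 CPM and 52.4, 39.0, 372 and 168 CPM, and Bc1, a small cytoplasmic RNA, 8.77, 3.89, 70.6 and 20.5 CPM and 7.83, 5.15, 86.1 and 30.4 CPM. All 4 kept a ratio under −1 in the synapsis-high members of the 2-day pair, from −3.65 for Il11 to −1.40 for Olfr655. Cdkn2a, which encodes the cell cycle inhibitors INK4A and ARF, stood at 17.5 CPM after 2 days and 2.12 after 7 days of culture, 105 at 9 dpp and 55.7 at 14 dpp in members and 22.2, 16.5, 133 and 211 CPM in the other germ barcodes. The 7-day pair had a ratio of −4.18, and the 2-day pair one of −2.52 over all members but −0.10 among the synapsis-high. Hist1h2ap, a replication histone gene with near-identical copies, so that its counts are uncertain, behaved alike, with −2.84, −2.93 and −0.01.

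The leading genes of the 7-day pair taken by itself included Sertoli transcripts, and the part of free RNA in their level was not tested. The list of Sertoli genes outside the rule had a median of −1.11 in this pair and 0.76 in the 2-day pair. With time its median was 1.05 in vivo and −0.89 in culture. Defb19, Cst12 and Rhox8, all Sertoli transcripts, were among the 5 lowest in the culture, with Defb19 at 11 against 169 CPM in members and 458 against 2163 in the other kept barcodes. Sertoli genes outside the rule summed to 934 CPM in members and 3353 CPM in the other kept barcodes in the 7-day culture and to 841 CPM in members and 4871 CPM in the other kept barcodes at 14 dpp. Most of the sum in members was Ctsl, a lysosomal protease, at 828 and 591 CPM. B3galnt1, a glycosyltransferase, was higher in the culture at 31.9 against 4.50 CPM, with 23.1 and 21 in the other germ barcodes. Cdkn1c, a cell cycle inhibitor, had 46.4 against 12.7 CPM, and Dlk1, a Notch ligand relative, 23.4 against 4.91 CPM.

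Chaperones fold other proteins, and several heat shock genes are active in germ cells without heat. Summed over the heat shock list of 14 genes, in UMIs of 2000 per member, the median was 30 (quartiles 24 and 36) in the 7-day culture, 23.5 (quartiles 19 and 29) at 14 dpp, 19 (quartiles 15 and 24) in the 2-day culture and 18 (quartiles 13 and 22) at 9 dpp. Hsp90aa1, the cytosolic HSP90, stood at 3663 CPM after 2 days and 7562 after 7 days of culture, 3011 at 9 dpp and 4937 at 14 dpp in members and 2028, 3409, 2146 and 3099.5 CPM in the other germ barcodes. Hspa5, the chaperone of the endoplasmic reticulum, had 3247, 4112, 1325 and 3419 CPM against 666, 1359, 498 and 787 CPM. In the 7-day pair Hsp90aa1 had a ratio of 0.61, Hspa5 of 0.27 and the constitutive Hspa8 of −0.45. The inducible Hspa1a, the acute marker of heat shock, was at 17.5, 32.9, 6.92 and 16.0 CPM in members and at 118, 419.5, 69.5 and 100.3 CPM outside. None of 12 measured genes of the list was past 2-fold in the pair, against 5.74% of all genes, and the median was 0.20. In synapsis-high members the median was −0.026, with 1 gene at least 2-fold higher, beside 129 of all 6605 genes.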

How the data were processed

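Droplet single-cell RNA-seq libraries of mouse testis (10X 3′ v2 kit), 1 for each of 4 groups, were analysed. The authors' deposited values are raw UMI counts per gene and barcode, made with Cell Ranger 3.0.2 on mm10 per the submitters' processing notes. Cell calling settings are not given in the sources used here, and how counts of near-identical genes were split is not stated. UMIs of the members were summed per library and scaled to CPM with exact Poisson intervals. Shares have Clopper-Pearson intervals and ratios of shares Katz intervals, all at 95%. Gene ratios are log2 ratios after adding 1 to each CPM. They cover genes that reached 100 UMIs over members, without mitochondrial genes, and understate the change of low genes. A count of 0 was set to 3 UMIs for folds, which leave out the counting error of the other value. Thinning drew 2000 UMIs per barcode and left out 40 shallower members.

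Doublets were kept, and 34 members called by Scrublet (scanpy 1.11.5, expected rate 6%) were removed as an alternative. TMM factors (edgeR 4.0.16) were another. Gene positions came from GENCODE M21 on GRCm38, and promoters from RefSeq on GRCm38.p6. The fold count was tested on simulated data.

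The members and lists were chosen with earlier results of these data known. Genes were named by rule: those of the break formation, synaptonemal, cohesin, telomere and meiotic entry lists, the 10 leading genes each way in both culture pairs and in both comparisons with time, the 5 leading each way in 1 comparison, the 15 leading over other germ barcodes, and of other lists up to 4 with the most UMIs and those past 2-fold in both pairs. Ribosomal protein genes and names of the form Gm plus digits or ending in Rik were left out of the leading genes. Brca2, Hsf2bp, Mnd1, Psmc3ip, Msh4, AI481877, Rrm2, Prim1, Mcm6, Tyms, Ccna2, Tdrd9, Ybx2, Dmrt1, Hspa1a, Taf7l and Cd74 fall outside this rule and were chosen after their values were seen. Some genes that these rules name are not reported here.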

Additional observations from a re-analysis of the deposited data

Results flagged for a closer look

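Among the genes named in the text, 4 were at least 2-fold higher in one culture pair and at least 2-fold lower in the other. Over all 6605 genes, 37 were higher in the 2-day pair and lower in the 7-day pair by that measure, and 27 the other way. The difference between the pairs was not tested, since each rests on 1 library per group. Mei1, a break factor, had a log2 ratio of 1.66 in the 2-day culture against 9 dpp and −1.06 in the 7-day culture against 14 dpp. Prdm9 had 1.13 and −1.25. In the synapsis-high members the ratio of the 2-day pair was 1.11 for Mei1 and −0.18 for Prdm9, so the opposite signs remained for Mei1 there and did not for Prdm9. Esx1, an X-linked homeobox gene of germ cells, went the other way, with −1.54 and 1.15. It stood at 123 CPM after 2 days and 308 after 7 days of culture, 359.9 at 9 dpp and 138 at 14 dpp, and its ratio in the synapsis-high members of the 2-day pair was −0.85. Clu, a Sertoli gene, had 1.25 and −1.11. Its level in members was 198, 69.7, 83.1 and 152 CPM, and in all other kept barcodes 2107, 1135, 2004 and 2071 CPM. In the synapsis-high members its ratio in the 2-day pair was 0.75, and with members thinned to 2000 UMIs it was −0.097, so the opposite signs did not remain there. The part of free RNA in Clu was not tested.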

How the results depend on the processing

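No paired analysis was possible because each group had 1 library and the labels give no replicate numbers, and leaving out a replicate was not possible for the same reason. Settings without a Stra8 limit, with at least 10 synaptonemal UMIs of 2000 (synapsis-high members) and, for genes and lists, with a marker sum of at least 5 were chosen after seeing the data. A marker sum is that of Dmc1, Rad51ap2 and Terb1. The cause of the shifts below was not tested. The values at 9 dpp rest on 76 members, 39 of them synapsis-high, and those of the 2-day culture on the fewest UMIs, 570004.

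The log2 ratio of shares in the 2-day pair, 0.82, was 0.39 with a marker sum of at least 2, 1.40 after thinning, 1.64 in synapsis-high members, −0.050 without the Stra8 limit and 1.19 without it after thinning. In the 7-day pair it was 0.32, and 0.53 over germ barcodes, 0.13 without the Stra8 limit, −0.0071 after thinning and −0.11 with both. For 14 dpp against 9 dpp it was 2.31, and 2.71 with a marker sum of at least 5, 1.62 with at least 2, 3.20 in synapsis-high members and 1.27 without the Stra8 limit. In culture with time it was 1.81, and 2.15 under 1000 genes and 10% mitochondrial UMIs, 2.49 and 1.45 with a marker sum of at least 5 and at least 2, 0.99 after thinning, 1.45 over germ barcodes, 1.44 without the Stra8 limit and 0.78 without it after thinning.

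Of 6605 genes in the 2-day pair, 640 were higher, against 358 with 10 CPM added, 362 with members weighted equally, 1024 with at most 1 Stra8 UMI, 270 of genes with at least 400 UMIs and 1520 of those with at least 10. The 839 lower were 556, 1418, 247 and 2449 with 10 CPM, at most 1 Stra8 UMI, at least 400 and at least 10 UMIs, and 492 in synapsis-high members. In the 7-day pair the 124 higher were 53 with 10 CPM, 214 thinned, 188 with a marker sum of at least 5, 35 at 400 UMIs and 625 at 10, and the 255 lower were 120 with 10 CPM, 71 at 400 and 827 at 10. For 14 dpp against 9 dpp the 793 higher were 467 with 10 CPM, 510 weighted equally, 346 at 400 and 1724 at 10, and the 561 lower were 184 in synapsis-high members, 222 with a marker sum of at least 5, 143 at 400 and 1928 at 10. In culture with time the 832 higher were 552 with 10 CPM, 1274 with a marker sum of at least 5, 336 at 400 and 2087 at 10, and the 620 lower were 388 with 10 CPM, 209 at 400 and 1637 at 10. With members weighted equally the split of higher and lower calls in the 2-day pair was 362 and 809.

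X-linked shares of 3.31%, 3.00%, 2.75% and 2.88% were 3.15%, 2.88%, 2.63% and 2.77% without the top gene. Thinned, the last 3 were 3.10%, 3.04% and 3.01%, and weighted equally 3.09%, 3.00% and 3.00%. At 9 dpp the share was 3.46% in synapsis-high members. In the 2-day pair the list of undifferentiated spermatogonia, with 1 measured gene, had a ratio of −1.27 and 0.13 thinned, differentiating spermatogonia 0.067 in synapsis-high members, and stroma 2.18 and −0.051 with at most 1 Stra8 UMI. Break formation, crossover, synaptonemal, meiotic cohesin, telomere attachment and meiotic entry each changed sign in 2 of 11 alternatives. Synaptonemal genes went from 0.98 to as low as −0.25 and crossover genes from 0.69 to −0.50. Other lists changed sign too, such as replication in 1 and germ granule in 4. For 14 dpp against 9 dpp the synaptonemal median went from 0.74 to as low as −0.48. Single genes that changed sign in the 2-day pair included Ccnd1 with 0.35 at a marker sum of at least 5, Spo11 with −0.10 and Prdm9 with −0.18 in synapsis-high members, Prdm9 with −0.026 at a marker sum of at least 5, and Clu with −0.10 thinned. They are not all. Of 11 synaptonemal genes 10 were above 0 over all members, while the list median was −0.25 in synapsis-high members. Over these settings, values of named genes moved by less than their counting interval in 1118 cases and by more in 177, and list medians in 650 and 447.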

Other observations

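Genes of the major histocompatibility complex differed in level between the germ gates, in both directions. H2-Ab1, a class II gene, was chosen by the ranking of leading genes, and the class I genes were chosen after their values were seen. H2-Ab1 stood at 98.2, 60.5, 33.2 and 84.7 CPM in members, 16.0, 20.5, 16.1 and 30.3 CPM in Stra8-high barcodes and 2.32, 0, 0.580 and 0.605 CPM in spermatogonia. In the pachytene gate it was at 21.3 CPM after 7 days of culture and 33.5 CPM at 14 dpp. The other class II genes were nearly absent from members: H2-Aa had 2, 1, 0 and 3 UMIs, H2-Eb1 had 0, 0, 2 and 5, and Cd74, the invariant chain that accompanies class II molecules, had 0 in all 4 libraries.

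H2-K1, a class I gene, stood at 842, 541, 393 and 951 CPM in members, 221, 253, 137 and 222 CPM in Stra8-high barcodes and 60.4, 52.1, 8 and 11.7 CPM in spermatogonia. In Sertoli barcodes it was at 878, 291, 40.3 and 179 CPM. At 9 dpp most UMIs of H2-K1, H2-D1 and H2-Ab1 in members came from the synapsis-high members, in which H2-K1 stood at 1089.6, H2-D1 at 454 and H2-Ab1 at 107 CPM. H2-D1 stood at 726, 501, 147 and 477 CPM in members and 135, 118, 11.6 and 17.6 CPM in spermatogonia. B2m, the class I light chain, stood at 311, 199, 47.1 and 95.8 CPM in members, 251, 113, 65.9 and 59.2 CPM in Stra8-high barcodes and 269, 207, 89.5 and 81.7 CPM in spermatogonia, and at 111 CPM in synapsis-high members of 9 dpp. Psmb9, an immunoproteasome subunit, stood at 1.75, 0.354, 0 and 0 CPM in members (1, 1, 0 and 0 UMIs), against 27.9, 33.0, 18.0 and 20.8 CPM in spermatogonia. H2-K1 and H2-D1 were higher in members than in spermatogonia in every library, cultured or not. In Stra8-high barcodes H2-D1 was at 219, 143, 46.0 and 111 CPM, and in Sertoli barcodes H2-D1 was at 1217, 338, 26.3 and 60.2 CPM and B2m at 1763, 512, 146 and 155 CPM, so that B2m was lower in members than in Sertoli barcodes in every library. In the pachytene gate H2-K1 was at 239 CPM after 7 days of culture and 168 CPM at 14 dpp. Class I genes are near-identical in parts, so the division of UMIs between them is uncertain. Nlrc5, the class I transactivator, had 0, 1, 0 and 0 UMIs in members, and Tap1, the peptide transporter, 2, 3, 0 and 1.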
